A study of Mus musculus with 2 samples.

Results

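Ligand genes of the tumour necrosis factor (TNF) family were compared between CD4 T cells from a culture of naive spleen cells and CD4 T cells from a co-culture of naive with anergic spleen cells. The set held 10 ligand genes of 27665 named genes on the array, chosen by symbol: Tnf, Lta, Ltb, Cd70, Cd40lg, Tnfsf4, Tnfsf8, Tnfsf10, Tnfsf11 and Tnfsf14. Each was measured by 1 probe of 60 bases. Both groups came from spleen cells of female OVA-TCR-Tg mice, whose T cells carry a transgenic receptor for ovalbumin (OVA), and both were exposed to OVA at 0.1 mg/mL for 24 h before CD4+ cells were sorted. The naive-only culture held 2500000 spleen cells/mL. For the co-culture, naive spleen cells were combined with as many spleen cells that had first been stimulated with 0.1 μg/mL of TSST-1, a bacterial superantigen, and that the labels call anergic. By the labels, the naive cells of the co-culture were at 0.5 times the density of the naive-only culture. The sources used here do not give the age of the mice, nor whether naive and pre-stimulated cells were separated in the sort. With 1 single-colour array per group, the differences between the groups have no replicate check and were not tested. Fewer cells of a type and less RNA per cell cannot be told apart in such bulk RNA.

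TNF family ligands are trimeric proteins, most of them anchored in the cell membrane, that bind receptors of the TNF receptor family on the same or neighbouring cells. T cells make many of them after antigen receptor signalling, and use them to help B cells, to license dendritic cells, to sustain each other's survival and to kill target cells. Several of the genes lie side by side in the genome: Ltb, Tnf and Lta form a cluster within the major histocompatibility complex, and Cd70, Tnfsf9 and Tnfsf14 form another on the same chromosome.

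The promoters of the clustered Tnf, Lta and Ltb genes are shown because Tnf and Lta differed between the arrays in opposite directions, while Ltb differed little. Those of Tnfsf11 and Tnfsf10 are shown as the promoters of a ligand that was lower and of the ligand that, among the 10, had the largest positive difference. RefSeq (GRCm38.p6) gave a promoter for 7 of the 10 genes; Cd70, Cd40lg and Tnfsf4 had no entry. Each line holds the 250 bases before the start of the gene, 5′ to 3′ on the gene's strand. Capitals mark the core that NFAT factors bind (GGAAA, or TTTCC on the other strand), the AP-1 motif TGANTCA and the kappaB motif of NF-kappaB, searched on both strands with overlaps allowed.
Tnf, chr17:35202008-35202257, minus strand: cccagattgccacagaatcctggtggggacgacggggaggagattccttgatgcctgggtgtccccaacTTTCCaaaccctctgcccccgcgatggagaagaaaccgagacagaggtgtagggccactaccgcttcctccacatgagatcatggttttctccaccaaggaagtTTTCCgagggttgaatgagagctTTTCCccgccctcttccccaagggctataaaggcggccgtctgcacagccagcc
Lta, chr17:35205352-35205601, minus strand: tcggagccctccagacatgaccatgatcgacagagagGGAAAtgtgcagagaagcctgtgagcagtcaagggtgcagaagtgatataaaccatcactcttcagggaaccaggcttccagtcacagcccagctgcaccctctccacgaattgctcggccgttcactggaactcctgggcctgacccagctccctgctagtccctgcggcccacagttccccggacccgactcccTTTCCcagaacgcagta
Ltb, chr17:35194257-35194506, plus strand: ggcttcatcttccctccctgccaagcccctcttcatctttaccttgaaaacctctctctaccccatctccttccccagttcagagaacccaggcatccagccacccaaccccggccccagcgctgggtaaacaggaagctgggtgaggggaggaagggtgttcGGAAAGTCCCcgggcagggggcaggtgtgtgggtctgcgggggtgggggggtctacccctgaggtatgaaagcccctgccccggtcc
Tnfsf11, chr14:78308044-78308293, minus strand: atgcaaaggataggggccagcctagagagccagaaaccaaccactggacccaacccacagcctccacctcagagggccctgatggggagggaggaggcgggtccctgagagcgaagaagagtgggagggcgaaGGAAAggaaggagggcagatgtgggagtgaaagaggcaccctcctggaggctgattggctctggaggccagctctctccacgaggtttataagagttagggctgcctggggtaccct
Tnfsf10, chr3:27316827-27317076, plus strand: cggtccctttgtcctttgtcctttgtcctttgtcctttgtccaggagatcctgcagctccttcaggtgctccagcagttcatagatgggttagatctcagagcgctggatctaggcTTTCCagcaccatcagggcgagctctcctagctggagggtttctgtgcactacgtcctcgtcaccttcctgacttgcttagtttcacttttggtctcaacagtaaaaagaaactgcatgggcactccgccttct

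The NFAT core was present in all 7 promoters, and in 55.6% of 32851 promoters of the same length. Tnf held 3 copies, at 181, 77 and 54 bases before the start, and Tnfsf14 also held 3, whereas 6.39% of all promoters had 3 or more. Lta held 2, and the other 4 promoters held 1 each. A kappaB match lay only in the Ltb promoter, where it overlapped the NFAT core 87 bases before the start; 7.25% of all promoters had such a match. An AP-1 match lay only in the Tnfsf14 promoter, 160 bases before the start, against 6.75% of all promoters. A match describes the letters in this window and is not evidence of a bound factor.

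The ligands Cd70, Cd40lg and Tnfsf4 are shown by the first 30 of the 60 bases of their probes, because these ligands, which had no promoter entry, were lower in the co-culture.
Cd70 probe: tttggagttcagtggatatgcccttgacca
Cd40lg probe: aacagataactaatgagcacagttttgttg
Tnfsf4 probe: tgcagagtatacgagagatttttaccctga

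In the comparison of the co-culture with the naive-only culture, the scanner software called 9 of the 10 ligands well above background on both arrays, and Tnfsf4 on the naive-only array only. Cd70, Tnfsf11 and Cd40lg were lower in the co-culture by 2-fold or more, and Tnfsf10 was higher by 2-fold or more. Tnf was 1.95-fold lower and Lta 1.98-fold higher, both just short of 2-fold, while Tnfsf8, Ltb and Tnfsf14 differed less. The 3 lower genes made up 33.3% of the 9, whereas the share was 5.53% among all 14375 genes measured on both arrays. The 1 higher gene made up 11.1%, against 7.72% of all genes. The median log2 difference over the 9 was -0.74, against -0.05 over all genes (interquartile range -0.37 to 0.33). Levels are given below as log2 of the background-subtracted signal relative to the array's 75th percentile, and a difference is the co-culture level minus the naive-only level with a technical error from the scanner software. That error was 0.20 for most genes and leaves out the variation between cultures.

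**Figure D1:**
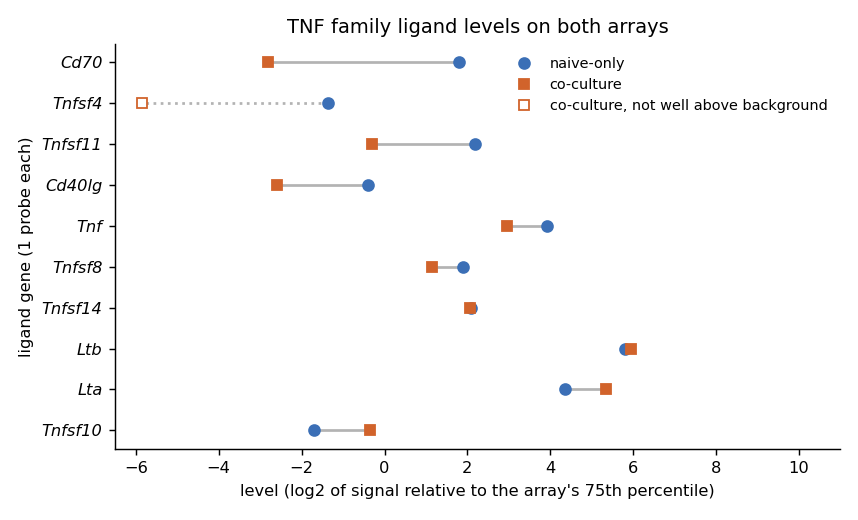
Levels of the 10 ligand genes in the naive-only culture (circles) and the co-culture (squares), as log2 of the signal relative to the array's 75th percentile on the horizontal axis, with 1 probe per gene. The squares of Cd70, Tnfsf11 and Cd40lg lie far to the left of their circles, that of Tnfsf10 lies to the right, and the open square of Tnfsf4 was not well above background.

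Tnf encodes the founding member of the family, an inflammatory cytokine released by activated T cells and macrophages. Its probe, on chromosome 17 from 35336795 to 35336854 (mm9), was printed in 10 spots on each array. The naive-only spots read from 4220 to 4789 intensity units (median 4468) and the co-culture spots from 2236 to 2421 (median 2325). The spots of the arrays did not overlap, and every spot was dimmer in the co-culture. The log2 difference was -0.96 ± 0.20 (technical error), and single spots ranged from -1.04 to -0.87. Of all measured genes, 6.01% had a lower difference than Tnf.

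Lta encodes lymphotoxin alpha, a secreted relative of TNF that binds the same receptors as a homotrimer and forms a membrane complex with lymphotoxin beta. Its probe, at 35340275 to 35340334 on chromosome 17 (mm9), was also printed in 10 spots. These read from 5838 to 6375 in the naive-only culture (median 6175) and from 11743 to 12656 in the co-culture (median 12184). Every co-culture spot was brighter than every naive-only spot, the opposite of Tnf. The log2 difference was 0.99 ± 0.20, with single spots from 0.94 to 1.02, and 92.1% of measured genes had a lower difference. Lta passed 2-fold under 3 other scalings and in the authors' deposited table, at 2.04-fold to 2.10-fold; the table gave the same numbers of genes past 2-fold as quantile normalization, 1 of the 3. Repeated spots share their array and RNA and show spot noise only.

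**Figure D2:**
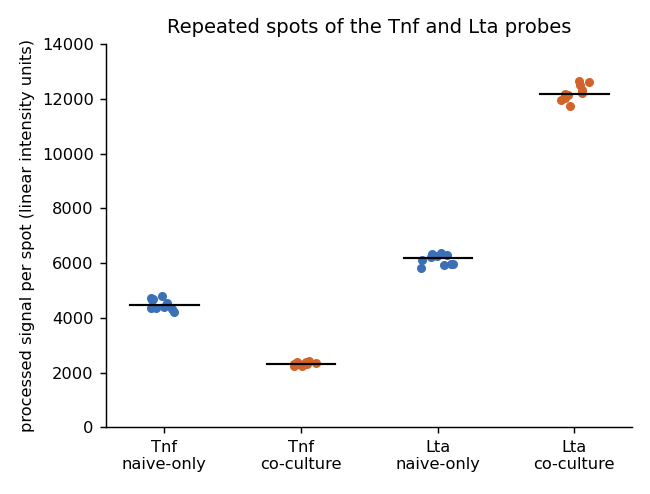
Processed signal of each of the 10 spots of the Tnf and Lta probes on the naive-only (blue) and co-culture (orange) arrays, in linear intensity units, with the median as a line. The median of the Tnf spots was 4468 and 2325 and that of the Lta spots 6175 and 12184, with no overlap between arrays for either probe.

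Ltb encodes lymphotoxin beta, the membrane anchor of the lymphotoxin complex, which signals through the lymphotoxin beta receptor and shapes lymphoid tissue. Its probe lies from 35333097 to 35333156 on chromosome 17 (mm9). Its level was 5.81 in the naive-only culture and 5.94 in the co-culture. The difference of 0.12 ± 0.20 was within the technical error. The Tnf and Lta probes lie 3.48 kb apart, and the Ltb and Tnf probes 3.70 kb apart. The log2 differences of Lta and Tnf were 1.95 apart, so the Lta signal relative to the Tnf signal was 3.86-fold higher in the co-culture. This relative change ranged from 3.83-fold to 4.03-fold over all settings tried. Scaling by 1 value per array cancels in it. Averaged probes, outlier removal and filters could not alter it either, as both genes had 1 probe without outlier spots. Only another background correction, quantile normalization and the authors' deposited table could move it.

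The other named genes around the cluster did not show a shared shift. Within 100 kb of the Tnf probe, 15 other named genes were measured on both arrays, and their differences ran from -0.67 to 0.97 with a median of -0.0023. None of these 15 passed 2-fold. Of all measured genes, 5.53% were at least 2-fold lower and 7.72% at least 2-fold higher, so a count over 15 genes says little. Cd70, Tnfsf9 and Tnfsf14 also differed from each other. The probes of Cd70 and Tnfsf14 lie 43.7 kb apart and had differences of -4.61 and -0.04, and Tnfsf9, 38.4 kb on the other side of Cd70, had -0.95. Of the 5 other measured genes within 100 kb of Cd70, Dennd1c, at 1.17, was the 1 past 2-fold, and it is named for that. The same shares of all measured genes apply, and 5 genes are too few to compare with them. On chromosome 4, Tnfsf15 and Tnfsf8, 106 kb apart, had nearly equal differences of -0.72 and -0.74. With another background correction (normexp) they were less alike, at -0.47 and -0.68.

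**Figure D3:**
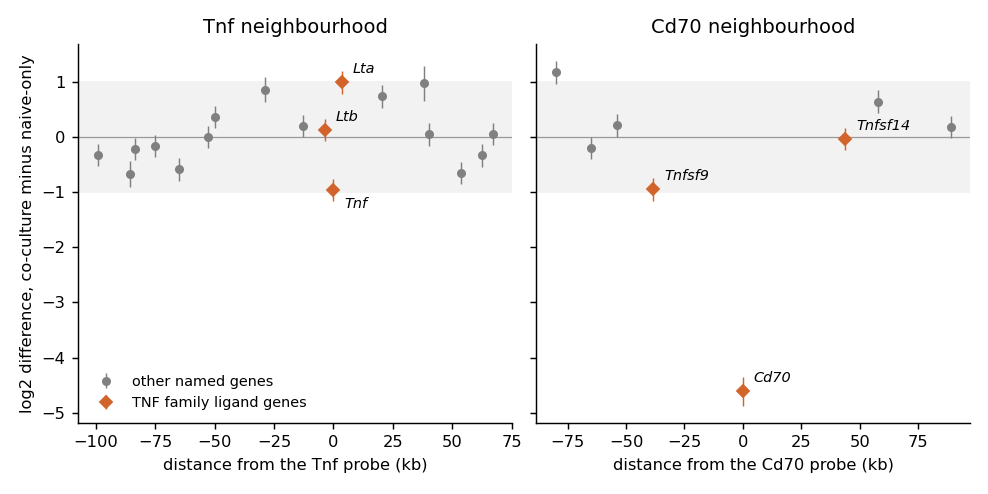
Log2 difference (co-culture minus naive-only) of named genes measured on both arrays, against the distance in kb from the Tnf probe (left) and from the Cd70 probe (right). Diamonds are TNF family ligand genes, circles other genes, bars the technical error, and the grey band spans less than 2-fold; Tnf and Lta lie at opposite edges of the band, and Cd70 at -4.61 lies far below its neighbours.

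Cd70 encodes the ligand of CD27, a costimulatory receptor of T cells, and is induced on activated lymphocytes and dendritic cells. Its probe is at 57285465 to 57285524 on chromosome 17 (mm9). Its level was 1.80 in the naive-only culture and -2.81 in the co-culture, a difference of -4.61 ± 0.26, or 24.4-fold lower. Only 6 of the 14375 measured genes had a lower difference. The co-culture signal was 42.9 intensity units, close to background, and with normexp background correction, which adds a fixed offset, Cd70 was 10.1-fold lower. Its receptor gene Cd27 stood at -0.07 ± 0.20.

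Cd40lg encodes CD40 ligand, the signal by which helper T cells activate B cells and dendritic cells. The probe is on chromosome X at 54477066 to 54477125 (mm9). The naive-only level of -0.40 and the co-culture level of -2.60 gave a difference of -2.20 ± 0.25, or 4.58-fold lower. With normexp it was 2.65-fold lower. Cd40, the receptor gene, which B cells and dendritic cells express, was also lower, at -3.88 ± 0.21, and at -3.36 with normexp.

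Tnfsf4 encodes OX40 ligand, best known on antigen-presenting cells, which costimulates T cells through the OX40 receptor. The signal was 116 intensity units in the naive-only culture and 5.19 in the co-culture, where it was not well above background. Against the lowest level called above background on that array, Tnfsf4 was at least 5.76-fold lower in the co-culture (chromosome 1, 163348095 to 163348153, mm9). With normexp the bound was at least 2.14-fold. Of 16227 genes above background on 1 or both arrays, 2.77% were above background on the naive-only array only and lower by a bound of at least 2-fold. Its receptor gene Tnfrsf4 stood at 0.10 ± 0.20, with levels of 8.55 and 8.65.

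Tnfsf8 encodes CD30 ligand, found on activated T cells and antigen-presenting cells. Its probe is on chromosome 4 at 63493871 to 63493930 (mm9). The naive-only level of 1.90 and the co-culture level of 1.16 gave a difference of -0.74 ± 0.20, or 1.68-fold lower. Its receptor gene Tnfrsf8 (CD30) was higher in the co-culture, at 1.68 ± 0.26, but at 0.88 with normexp, short of 2-fold. Tnfsf14 encodes LIGHT, a costimulatory ligand that shares its receptors with the lymphotoxins and with BTLA. Its probe is on chromosome 17 at 57329192 to 57329251 (mm9). Its levels of 2.10 and 2.06 gave a difference of -0.04 ± 0.20, within the technical error, and its receptor gene Tnfrsf14 stood at 0.20 ± 0.21. The other measured probe of Tnfrsf14 gave -0.95.

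Tnfsf11 encodes RANK ligand, which T cells make after activation and which drives osteoclast formation and supports dendritic cell survival. Its probe is on chromosome 14 at 78677444 to 78677503 (mm9). It had a level of 2.18 in the naive-only culture and of -0.29 in the co-culture, a difference of -2.48 ± 0.21, or 5.57-fold lower. It was 4.61-fold lower with normexp. Of measured genes, 0.974% had a lower difference. The receptor gene Tnfrsf11a was at -0.16 ± 0.21, and the decoy receptor gene Tnfrsf11b was above background on neither array.

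Tnfsf10 encodes TRAIL, a ligand that can induce apoptosis through death receptors. The probe, on chromosome 3 at 27238508 to 27238567 (mm9), read 92.0 intensity units in the naive-only culture and 236 in the co-culture. The level went from -1.70 to -0.35, a difference of 1.35 ± 0.22, or 2.55-fold higher. With normexp it was 1.90-fold higher, short of 2-fold. Its receptor gene Tnfrsf10b stood at -0.38 ± 0.20. Fasl, another death ligand of the family, was 7.94-fold higher at 2.99 ± 0.21, and at 2.64 with normexp.

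**Figure D4:**
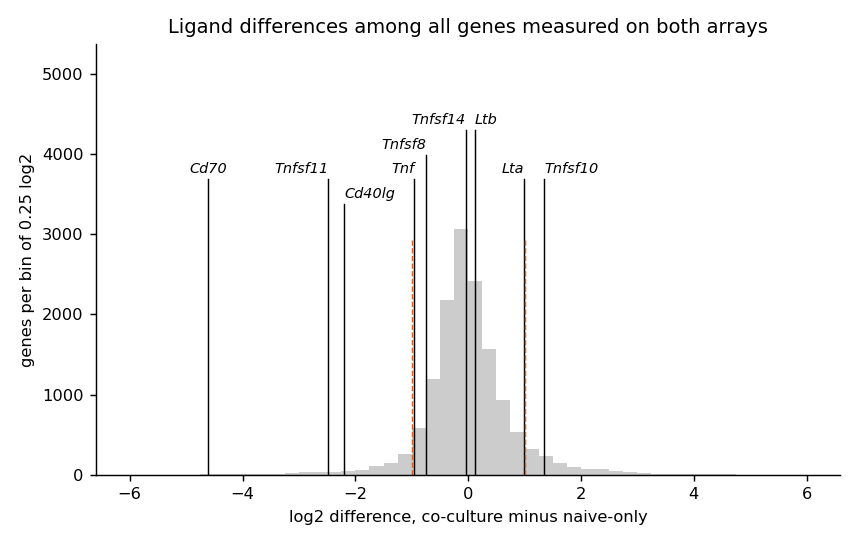
Number of genes in bins of 0.25 log2 difference (co-culture minus naive-only) for the 14375 genes measured on both arrays, with the 9 measured ligands as labelled lines and 2-fold as dashed lines. Cd70, Tnfsf11 and Cd40lg lie in the left tail, Tnf and Lta near the dashed lines, and Ltb and Tnfsf14 in the centre.

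The other genes of the pathway were counted by list. Of 8 further ligands, 4 were measured on both arrays. Fasl, 25% of the 4, was at least 2-fold higher, against 7.72% of all measured genes. None was at least 2-fold lower, against 5.53% of all measured genes, and 4 genes are too few to compare with these shares. Tnfsf9, the ligand of 4-1BB, was at -0.95 ± 0.20. Of 11 receptors of the ligands, 10 were measured. Cd40 was at least 2-fold lower and Tnfrsf8 at least 2-fold higher, 10% each, against 5.53% and 7.72% of all measured genes. The median was -0.11. Tnfrsf1a, Tnfrsf1b and Ltbr, which bind TNF and the lymphotoxins, stood at 0.05, -0.39 and -0.57.

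Of 26 adaptors, kinases and NF-kappaB genes that act downstream of the receptors, 26 were measured, and 23 had negative differences, as did 7820 of the 14375 genes measured. The 5 that were at least 2-fold lower were the NF-kappaB subunit genes Rel (-2.15) and Nfkb2 (-1.07), the inhibitor genes Nfkbie (-1.19) and Nfkbia (-1.16), and Tnfaip3 (-1.23), whose protein A20 restrains NF-kappaB; Nfkb2 was named after its value was seen. Rel was at -1.05 with normexp. The 5 made up 19.2% of the 26, against 5.53% of all measured genes. None was at least 2-fold higher, against 7.72% of all measured genes, and the median was -0.31. Several of these genes are themselves NF-kappaB targets.

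Of 16 genes for decay of cytokine mRNA and for shedding or cleavage of membrane ligands, 15 were measured. Zfp36 (-1.16), whose protein tristetraprolin destabilises Tnf mRNA, and Zc3h12a (-1.08), which encodes the ribonuclease Regnase-1, were at least 2-fold lower, and none was at least 2-fold higher. The lower genes made up 13.3% of the 15, against 5.53% of all measured genes, of which 7.72% were at least 2-fold higher. With normexp both were short of 2-fold, at -0.81 and -0.88. Adam17, which encodes the protease that releases soluble TNF, stood at -0.24 ± 0.21; it was named after its value was seen. Of 15 genes of NFAT, AP-1 and related factors, 14 were measured, Jun (-1.57) was at least 2-fold lower and none was higher by 2-fold. Jun made up 7.14% of the 14, against 5.53% of all measured genes, and the absence of higher genes compares with 7.72%. The medians of these lists were -0.37 and -0.23, against -0.05 over all genes.

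The measured markers of B cells and natural killer cells were lower in the co-culture. The macrophage list had a median of -0.09, and the 2 CD8 T cell markers went opposite ways. Of 8 B cell markers, the 6 measured were all at least 2-fold lower, led by Ms4a1 (-5.03), Fcer2a (-2.86) and Cd79a (-1.76). With normexp, Cr2 was at -0.91, short of 2-fold, and Fcer2a was at -1.54, behind Cd79a at -1.63. The share at least 2-fold lower over all measured genes was 5.53%. Another 2 B cell markers were above background on the naive-only array only. The summed signal of the 8 was 10444 intensity units in the naive-only culture and 2448 in the co-culture. Of 7 dendritic cell markers, 4 were measured and all had negative differences, as did 7820 of the 14375 genes measured. Flt3 (-2.87) was at least 2-fold lower, 25% of the 4, against 5.53% of all measured genes. Ccl22 was above background on the naive-only array only, and 2 markers, Xcr1 among them, on neither. With normexp, Flt3 was at -1.47, and Itgax and Zbtb46 went from -0.46 and -0.86 to -0.13 and -0.30. The summed signal of the 7 was 49674 and 45388, of which Siglech (-0.12) gave 48922 and 45263, so this sum says little about the others. Siglech was read from the brightest of its 3 probes, and no other probe of it was measured on both arrays. Of 5 natural killer cell markers, 2 were measured, Eomes (-3.84) and Tyrobp (-1.50). Another 2 were above background on the naive-only array only, the brighter of them, Ncr1, at 47.7 units, and 1 on neither array. The list's summed signal was 1462 and 278. Eomes gave 828 and 58.3 of it and Tyrobp 547 and 194, so this sum says little about the others. Of 6 macrophage and monocyte markers, Cd14 (-1.71) and Lyz2 (-1.12) of the 5 measured were at least 2-fold lower, but Lyz2 was at -0.38 with normexp. The other 3, Csf1r (-0.06), Adgre1 (-0.09) and Itgam (0.37), differed little or were higher by their brightest probes. Other measured probes gave -0.65 and 0.33 for Itgam and -0.55 and -0.13 for Csf1r. The summed signal of the list was 4358 and 4651, of which Itgam gave 2663 and 3454. The CD8 T cell markers Cd8a and Cd8b1 stood at 0.52 and -0.56, with summed signals of 230 and 193. Cd8a was dim, at 47.0 and 67.6 units, and with normexp the markers were at 0.26 and -0.38. The part of these cells in the values of Cd70, Cd40lg, Tnfsf4, Tnfsf11 and Tnfsf10 was not tested. The T cell markers Cd3e, Cd4 and Cd3g stood at 0.37, 0.35 and 0.90, and all were well above background on both arrays. Their naive-only levels were 6.11, 5.54 and 4.81.

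**Figure D5:**
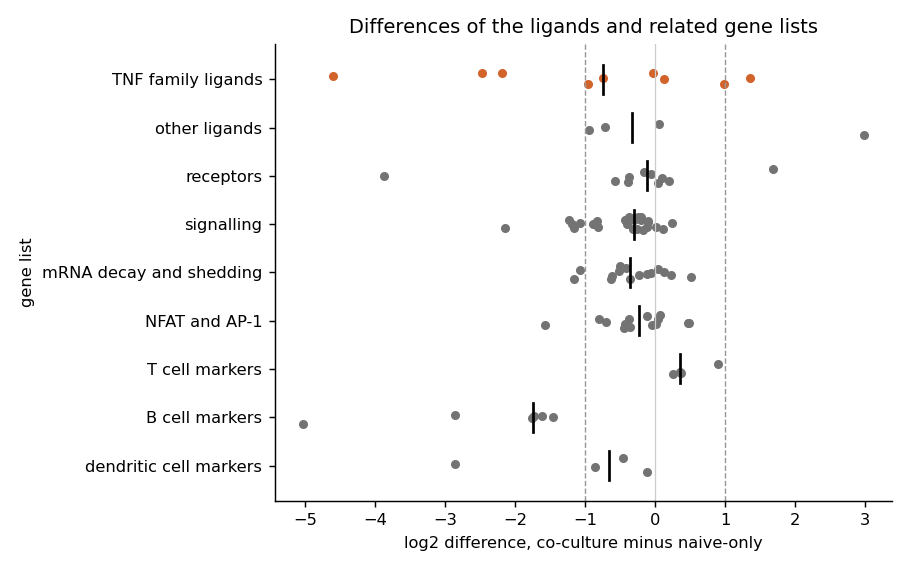
Log2 difference (co-culture minus naive-only) of each gene measured on both arrays, by gene list, with the list median as a bar and 2-fold as dashed lines. The 9 ligands spread from -4.61 to 1.35 around a median of -0.74, wider than the 26 signalling genes, which run from -2.15 to 0.24, and all 6 B cell markers lie left of -1.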

How the data were processed

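RNA of 2 sorted CD4 T cell samples, 1 per group, was amplified, labelled with Cy3 and hybridised to 1 Agilent array each, per the labels' protocols; amplification can alter relative levels. Groups came from the sample titles. The deposited intensity is background-subtracted by Feature Extraction 10.7.1.1 per the file headers (9.5.1.1 per the submitters' processing notes). A deposited intensity table, normalized by the authors in a way not given in the sources used here, served as an alternative; its scale, linear, was settled against the scanner values.

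Log2 signal was averaged over a probe's spots, and the 75th percentile of each array's 55681 noncontrol probes (299.4 and 301.3 units) was subtracted. A gene was its brightest probe, measured where most of its spots were well above background on both arrays. The technical error joins the errors that the software gave for each array. No ligand spot was saturated or marked as an outlier, and having 1 array per group limits the precision. Names came from the files and, for 27235 of 36743 named probes, RefSeq accessions (GRCm38.p6). Exon and UTR annotation of mm9 was not used here.

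The ligands and lists were chosen with earlier results of these data known. The text names all 10 ligands, up to 4 genes per list and direction past 2-fold and up to 3 markers per cell type. It also names the receptors described with a ligand. Nfkb2, Adam17, Siglech, Itgax, Zbtb46, Cr2, Adgre1, Itgam and the genes around the ligand clusters were named beyond this rule, after values were seen. The alternatives were normexp (offset 50), 3 other scalings, the deposited table, averaged probes, outlier spots left out, and no or a stricter filter on dim genes. Python 3.11.15, numpy 2.4.6, pandas 2.3.3, matplotlib 3.10.9, R 4.3.3 and limma 3.58.1 were used.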

Additional observations from a re-analysis of the deposited data

How the results depend on the processing

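The negative differences of Cd70, Cd40lg, Tnfsf11, Tnf and Tnfsf8 kept their direction under every one of the 9 alternatives in which they were measured. So did the positive ones of Lta, Ltb and Tnfsf10, and Tnfsf14 lay between -0.17 and 0.01. Each ligand had 1 probe without an outlier spot, so averaged probes, outlier spots left out and the filters left values almost unchanged. Median scaling and the percentile over detected probes moved all genes by 1 shared amount. Only normexp, quantile normalization and the deposited table could move ligands relative to each other. The count of ligands at least 2-fold lower stayed at 3, or 4 with no filter on dim genes, which counts Tnfsf4. It was 0 with only the brighter genes, which kept 4 ligands, with a median of 0.042. The count at least 2-fold higher was 2 with median scaling, with the percentile over detected probes, with quantile normalization and in the deposited table, since Lta then passed 2-fold, and 0 with normexp and with only the brighter genes. Among receptors, 2 were lower with no filter and 0 with only the brighter genes, and 0 were higher with normexp and with only the brighter genes. Over all genes, 528 were at least 2-fold lower with normexp, 2155 with no filter and 193 with only the brighter genes; 2458 were higher with no filter and 363 with only the brighter genes. Dim probes limit the size of the Cd70, Cd40lg, Tnfsf4 and Tnfsf10 differences, whose low side lay near background. With 1 array per group, no alternative bears on the variation between cultures.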
